A study of Homo sapiens with 6 samples.

Results

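The untreated state of OCI-AML5 was taken from the 3 solvent-control libraries of the study, which are the 3 samples of 6 that carry the DMSO label. OCI-AML5, a human cell line that came from acute myeloid leukemia (AML), is grown with added granulocyte-macrophage colony-stimulating factor (GM-CSF) and was kept here in alpha minimum essential medium with 10% fetal bovine serum and 10 ng/mL GM-CSF. The cells had received DMSO alone for 24 hours before RNA was taken, with no gene edited and no compound given. The other 3 samples of the study were exposed to a test compound and were not analysed here, so the values below describe 1 group and carry no test between groups. The labels number the 3 replicates without saying that they came from separate cultures, so the spread between them may be technical.

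AML arises from myeloid progenitors, the marrow cells that give rise to granulocytes and monocytes. Such cells are held in place along this path by transcription factors such as *SPI1* and *CEBPA*, they pack their first granules with myeloperoxidase and serine proteases, and they read growth signals through cytokine receptors that act on STAT5. The order in which these genes are switched on and off is the usual guide to how far a leukemia has matured.

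Each library held 216255609, 149994700 and 258029564 read pairs assigned to 1 gene on the reverse strand in replicates 1, 2 and 3, which was 79.6% of all fragments in each. Fragments mapping to several places made up 7.27% to 7.56%. At these depths 3 counts, the most that a count of 0 is taken to allow, corresponded to 0.0116 to 0.0200 CPM (counts scaled to library size), a limit that covers counting error only. Levels are given as TPM, a share of all transcripts on a fixed total that is corrected for transcript length and so allows genes to be compared with each other. A mean is over the 3 replicates, and an SD, where given, is over the same 3. Over the 389 list genes that were detected, the SD was 7.78% of the mean at the median and 27.1% at the 90th percentile.

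At a threshold of 1 TPM in every replicate, 12609 of 60564 listed genes were detected, among them 10936 of 19887 protein-coding genes (55%). This 55% is the share to set beside the counts of detected list members below. At other limits the shares were 38.7% at 10 TPM, 33.8% under 0.1 TPM and 19% with 0 counts, each in all replicates. The range of levels was wide. 7993 genes reached 10 TPM, 1402 reached 100 TPM and 138 reached 1000 TPM in all replicates. The 10 most abundant genes held 11.1% ± 0.54 (SD, n = 3) of all TPM and the 100 most abundant 37.8% ± 0.78. It took 246, 222 and 230 genes to fill 50% of the TPM of replicates 1, 2 and 3.

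Messenger RNAs of the mitochondrial genome led the list. *MT-ATP8*, which encodes a short subunit of ATP synthase, stood at 23215, 28035 and 25223 TPM in replicates 1 to 3. Its effective length was only 28.2, 31.4 and 29.9 bases in the 3 replicates, so its TPM rests on a small divisor. *MT-CO3*, *MT-CO2* and *MT-CO1*, the catalytic subunits of cytochrome c oxidase, and *MT-ATP6* followed at means of 11153 to 11980 TPM. Mitochondrially encoded genes together made up 12.3% ± 0.78 of TPM, and 5.12% of gene counts. *EEF1A1*, the elongation factor that brings aminoacyl-tRNA to the ribosome (chr6), was the most abundant nuclear gene, with 8005, 8384 and 8786 TPM. It was lowest in replicate 1 and highest in replicate 3, with a mean of 8392 ± 391 TPM (SD, n = 3).

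The remaining leading genes served glycolysis, the cytoskeleton and above all protein synthesis. *GAPDH*, the glycolytic dehydrogenase, had 5397, 5200 and 5302 TPM, and *ACTB*, cytoplasmic beta actin, had a mean of 4644 ± 121 TPM. *RPL41*, *RPL37A*, *RPS27* and *RPS18*, which encode proteins of the large and small ribosomal subunits, filled the places around them. Of 85 ribosomal protein genes 82 were detected, at means from 88.8 to 5150 TPM, and the group made up 20.8% ± 0.18 of all TPM. The 3 others were *RPL3L*, *RPL10L* and *RPL39L*, tissue-restricted copies with means of at most 0.0833 TPM. All 79 genes of the mitochondrial ribosome were detected as well.

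**Figure D1:**
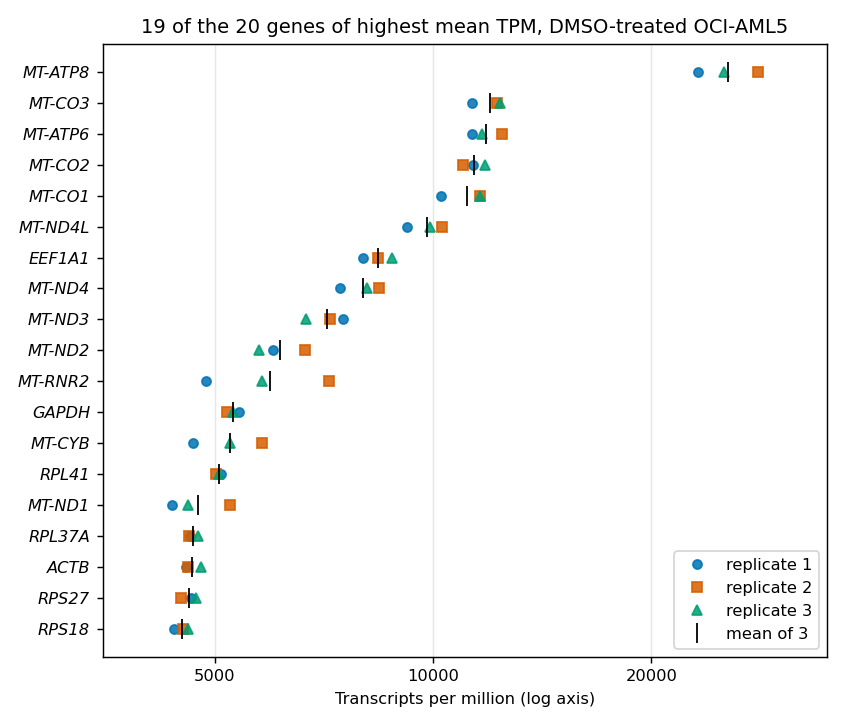
19 of the 20 most abundant genes by mean TPM (log axis), with 1 point for each of the 3 DMSO replicates. *MT-ATP8* lies highest at 23215 to 28035 TPM, and the 3 points of most genes, such as *GAPDH* at 5200 to 5397 TPM, lie close together.

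Ribosomal proteins and elongation factors are known for a stretch of C and T bases at the transcription start, through which their translation is tied to growth signalling. The start regions of the 6 most abundant genes with an entry in the RefSeq promoter table (GRCh38.p14) are shown for this reason. Each runs from 40 bases before to 20 bases after the listed start, on the strand of the gene, and capitals mark a C followed by at least 4 bases that are each C or T and beginning near the start.
*EEF1A1* (chr6:73521013-73521072, minus strand): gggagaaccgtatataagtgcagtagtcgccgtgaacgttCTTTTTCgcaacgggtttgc
*GAPDH* (chr12:6535224-6535283, plus strand): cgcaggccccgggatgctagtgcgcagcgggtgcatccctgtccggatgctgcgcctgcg
*RPL41* (chr12:56116593-56116652, plus strand): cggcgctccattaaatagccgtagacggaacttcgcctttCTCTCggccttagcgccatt
*RPL37A* (chr2:216498804-216498863, plus strand): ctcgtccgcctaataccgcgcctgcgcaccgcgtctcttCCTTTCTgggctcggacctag
*RPS27* (chr1:153990722-153990781, plus strand): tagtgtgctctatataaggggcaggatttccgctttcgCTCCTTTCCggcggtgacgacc
*RPS18* (chr6:33272035-33272094, plus strand): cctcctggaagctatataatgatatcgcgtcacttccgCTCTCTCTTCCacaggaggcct

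The run was present in all of these stretches except that of *GAPDH*. That stretch, from base 6535224, lies inside the gene, which is annotated from base 6533927. The lack of the run there does not show that other starts of *GAPDH* lack it. The *EEF1A1* stretch also lies inside its gene, which is annotated up to base 73523797. Whether these listed starts are the main ones was not tested. Among 103 protein-coding genes above 1000 TPM with a promoter entry, 54 (52.4%) held it. The share was 11.3% for genes from 1 to 10 TPM, 11.6% from 10 to 100 TPM and 15.8% from 100 to 1000 TPM, beside 10.5% of all 35114 windows in the table. It stood in 45 of 68 ribosomal protein genes (66.2%) and 5 of 10 translation factors, against 8 of 70 mitochondrial ribosomal genes (11.4%). Outside the ribosomal and translation factor lists, 7 of 34 genes above 1000 TPM (20.6%) had the run. These shares describe letters at an annotated start and do not show where transcription began in these cells.

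Of 8957 detected genes with a window, 85.9% had a ratio of observed to expected CpG over 0.6, beside 66.6% of all 15321 matched protein-coding genes and 48.8% of all windows. Across genes the ratio and mean TPM had a Spearman correlation of 0.51, a description over genes that are not independent. The letters GGGCGG, the box bound by SP1-type factors, stood on either strand in 68.9% of detected genes, 56.9% of matched genes and 42.6% of all windows. The letters TATAAA lay from 40 to 15 bases before the start in 1.43% of detected genes, 3.74% of matched genes and 2.30% of all windows. Entries were found for 86.1% of eligible genes at a mean of 1 TPM or more and for 77.9% of those below it. A contrast with undetected genes would thus rest on uneven coverage, and none is drawn here. The correlation includes genes below 1 TPM and shares this limit.

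Among nuclear genes outside the ribosome, *EEF1A1*, *GAPDH* and *ACTB* were followed by *PPIA* (cyclophilin A) and *NPM1* (nucleophosmin, a nucleolar chaperone that is often mutated in AML) at means of 3652 and 3445 TPM. *PTMA*, *ACTG1*, *TPT1*, *EEF2*, *ENO1* and *TMSB4X* came next. *FTL*, the light chain of the iron store ferritin, had 3308, 2350 and 2164 TPM, with replicate 1 above the other 2. Most of the leading long noncoding RNAs were small nucleolar RNA hosts: *SNHG29* had a mean of 751 TPM, *SNHG5* 632, *SNHG6* 590, *GAS5* 454 and *ZFAS1* 217. The nuclear RNA *MALAT1* reached 94.6 TPM. *MIR223HG*, the host transcript of the myeloid microRNA miR-223, had 40.2 TPM.

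The estimate for several abundant genes leaned on reads that were not assigned to 1 gene. For *EEF1A1* the estimated count was 2.41 times the uniquely assigned count and for *RPL41* 4.14 times. The ratios of *RPS10* (192) and *ALDOA* (207) were far larger. Levels of these genes, which have near-identical copies or overlap other listed genes, are uncertain. *EEF1G*, another elongation factor subunit, had 0 unique counts in all replicates and 1892, 1998 and 2030 TPM from the estimate. In all, 158 genes were of this kind, 84 of them protein-coding. Of the 158, 14 lay in the end regions shared by X and Y, where a gene is listed at both.

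Factors that set the myeloid fate were abundant. *SPI1* (PU.1, the master regulator of myeloid genes, chr11:47354860-47378576) had 258, 232 and 215 TPM in replicates 1, 2 and 3. Of 18 myeloid transcription factors 15 were detected, beside 55% of protein-coding genes. *CEBPD*, *GFI1*, *ZEB2*, *IRF8* and *CEBPA* had means from 110 to 131 TPM. *CEBPE*, which drives the secondary granule program in later granulocytes, had 28.5 TPM.

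Most factors of the stem and progenitor compartment were present too, 18 of 23 (78.3%), beside 55% of protein-coding genes. *MYC*, the growth regulator, had 483, 575 and 481 TPM, and replicate 2 was the highest. *LYL1* and *MYB*, which sustain immature blood cells, had means of 333 and 218 TPM. *LMO2* and *RUNX1* were near 100 TPM and *GATA2* was at 26.1 TPM. *MEIS1* (1.55 TPM) and *WT1* (1.31 TPM) were low, and *MECOM* (0.02 TPM) and *MYCN* lay under 0.1 TPM.

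Homeobox genes of clusters A and B carry the positional code of early blood cells and are often retained in AML. *HOXA9* (chr7:27162435-27175180) had 26.9, 25.5 and 22.4 TPM, and *HOXA10* had a mean of 15.4 TPM. In cluster A 5 of 11 genes were detected (45.5%), *HOXA7* among them at 3.64 TPM. In cluster B 5 of 10 were detected (50%), led by *HOXB4* at 22.1, *HOXB3* at 14.9 and *HOXB6* at 13.9 TPM. Both shares were near the 55% of protein-coding genes. All 18 genes of clusters C and D lay under 0.1 TPM.

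**Figure D2:**
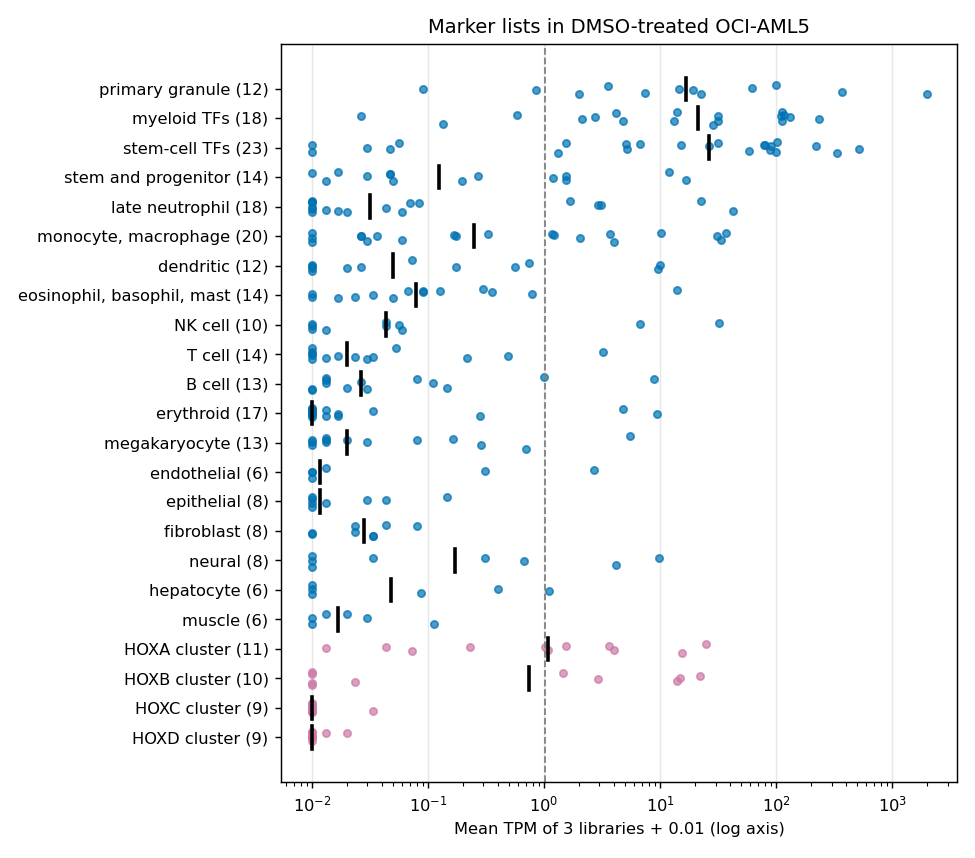
Mean TPM + 0.01 over the 3 DMSO replicates (log axis) of the members of each lineage and transcription factor list, with 1 point for each gene, a black bar at the list median and a dashed line at 1 TPM. Members of the myeloid and stem transcription factor lists mostly lie above 1 TPM (15 of 18 and 18 of 23), and those of the epithelial, fibroblast and muscle lists lie below it.

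Granule genes gave an uneven picture. Of 12 genes for primary granule contents 10 were detected, with a summed level of 3300, 2343 and 2102 TPM. Most of that sum was *SRGN* (serglycin, the proteoglycan that packs granule proteins), with 2408 TPM in replicate 1. *LYZ* (lysozyme, chr12:69348341-69354234) had 597, 264 and 244 TPM, *RNASE2* had 130, 82.0 and 87.7 TPM and *CTSG* (cathepsin G) had 77.7, 52.6 and 55.3 TPM. All of these were highest in replicate 1. *MPO* (myeloperoxidase, the enzyme used to define the myeloid lineage) was modest at 26.6, 17.1 and 13.4 TPM. *ELANE* (neutrophil elastase) was nearly silent at 0.13, 0.07 and 0.04 TPM, and *PRTN3* had a mean of 0.84 TPM.

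Later stages were sparse. Only 5 of 18 late neutrophil genes were detected, with *CSF3R* (the G-CSF receptor) at 42.7 TPM and *CXCR2* (a receptor for interleukin-8) at 22.3 TPM, and 11 lay under 0.1 TPM. Of 20 monocyte and macrophage genes 7 were detected in all replicates. *FCGR1A* (the high-affinity IgG receptor) had 37.1 TPM and *CSF1R* (the M-CSF receptor) 30.8. *CD68*, a lysosomal protein of macrophages, had 33.5 TPM but only 17, 13 and 16 unique counts, so its level rests almost wholly on reads not assigned to 1 gene. *CD14*, the usual monocyte marker, was at 0.02 TPM.

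At the immature end 3 of 14 stem and progenitor genes were detected in all replicates. *FLT3*, a receptor kinase of early progenitors, had 13.9, 18.7 and 17.5 TPM. *CD38* had 7.90, 15.7 and 11.9 TPM. *CD34* (chr1:207880972-207911402), the stem cell antigen, had 0.68, 1.32 and 2.65 TPM, so it passed 1 TPM in 2 replicates. *KIT*, the stem cell factor receptor, stayed below 1 TPM in all replicates with 0.14, 0.39 and 0.25 TPM.

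Start regions of 4 myeloid genes that hold a core motif are given to place the sequence beside the level. They were picked after their motifs were seen. Capitals mark TATAAA in *CEBPA* and *CXCL8* and the purine core GAGGAA, which PU.1 is known to bind, in *CTSG* and *CD33*, where the latter has it on the opposite strand as TTCCTC.
*CEBPA* (chr19:33302515-33302574, minus strand): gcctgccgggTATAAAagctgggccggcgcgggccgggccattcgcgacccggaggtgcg
*CXCL8* (chr4:73740529-73740588, plus strand): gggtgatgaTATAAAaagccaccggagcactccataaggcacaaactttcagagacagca
*CTSG* (chr14:24576231-24576290, minus strand): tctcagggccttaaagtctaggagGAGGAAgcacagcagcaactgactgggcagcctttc
*CD33* (chr19:51225040-51225099, plus strand): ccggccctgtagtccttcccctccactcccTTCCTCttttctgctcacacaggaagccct

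GAGGAA on either strand was common, with 8277 of 35114 windows holding it, so its presence sets no gene apart. The CpG ratio was 1.05 for *CEBPA*, against 0.351 for *CXCL8*, 0.143 for *CTSG* and 0.117 for *CD33*.

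Of 36 surface genes studied as antigens in AML, 22 were detected in all replicates (61.1%), near the 55% of protein-coding genes. *CD44*, the hyaluronan receptor, was the highest with 276, 349 and 409 TPM, and replicate 3 was above replicate 1. *CD33*, a sialic acid binding receptor and antibody target, had 96.6, 88.6 and 96.8 TPM and *CLEC12A*, a C-type lectin of AML blasts, had 63.1, 41.1 and 43.2 TPM. *CD99*, *SPN* (CD43) and *CD70*, the ligand of CD27, had means of 184, 126 and 113 TPM, of which that of *CD99* rests on 2, 2 and 0 unique counts. Also present were *LILRB4*, *PTPRC* (CD45), *CD47*, *IL1RAP* and *CD96*, from 81.0 down to 36.6 TPM. *IL3RA*, the interleukin-3 receptor alpha chain, had 13.7 TPM and 0 unique counts, beside 2888, 2018 and 3803 estimated counts. Below 1 TPM were *HAVCR2* (TIM-3, 0.54 TPM), *CD274* (PD-L1, 0.0967 TPM), *CD4* (0.02 TPM) and *CD7*. *ANPEP* (CD13), which marks many myeloid blasts, had 0.02, 0.09 and 0.02 TPM.

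**Figure D3:**
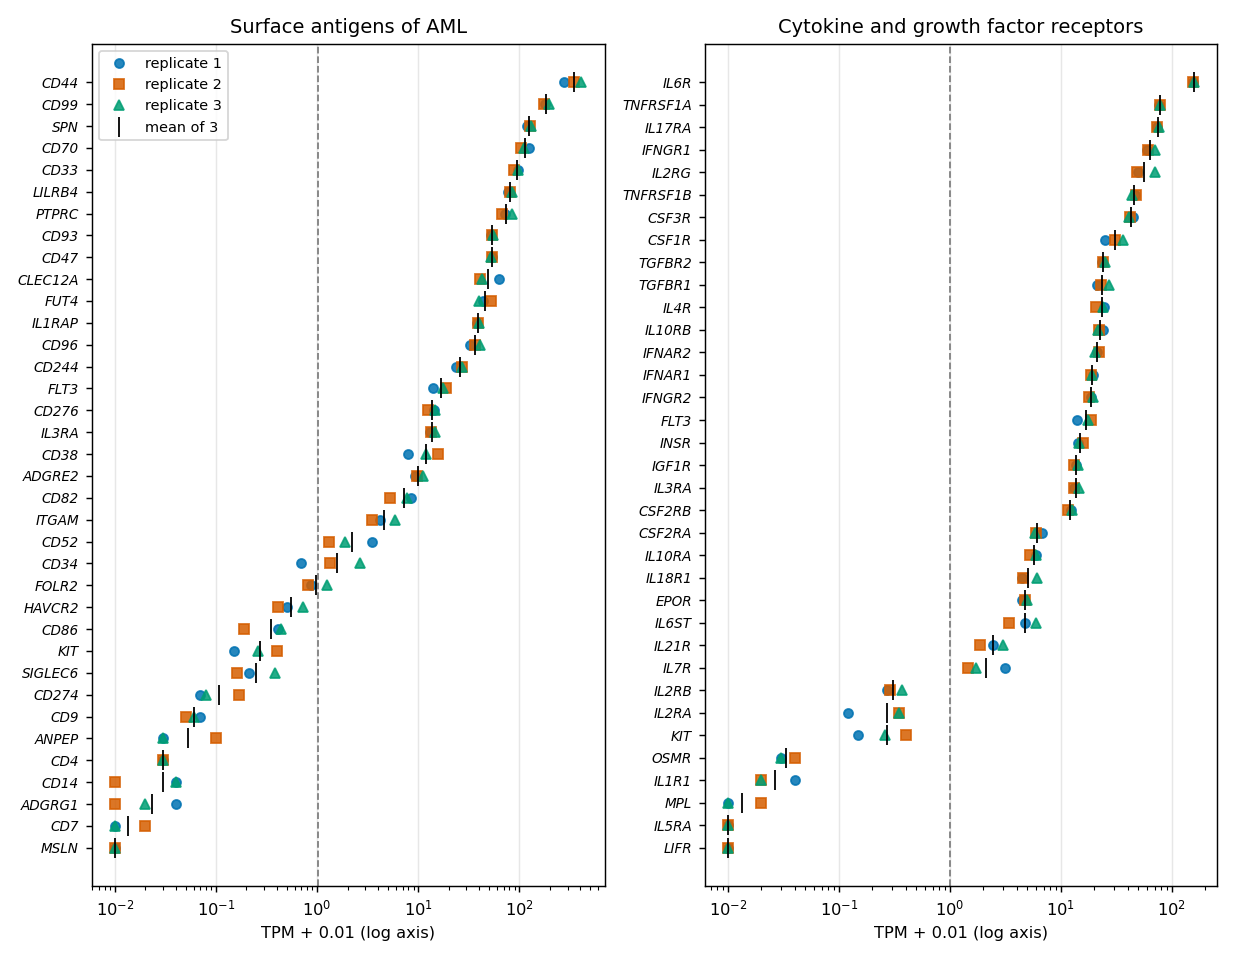
Levels of surface antigen genes (left) and cytokine receptor genes (right) as TPM + 0.01 (log axis), with 1 symbol per replicate, a bar at the mean and a dashed line at 1 TPM. *CD44* (276 to 409 TPM) and *IL6R* (156 to 159 TPM) lie at the top, and *ANPEP* is among the lowest at 0.02 to 0.09 TPM.

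The receptors through which growth factors act were broadly present, 27 of 35 (77.1%), beside 55% of protein-coding genes. *IL6R*, the interleukin-6 receptor, was the highest with 156, 156 and 159 TPM. *TNFRSF1A* and *IL17RA* had 77.8 and 75.0 TPM. *CSF2RB* and *CSF2RA*, the chains that form the GM-CSF receptor, had means of 12.2 and 6.15 TPM. *CSF2RA* lies in the end region shared by X and Y, is listed at both, and had 0 unique counts. *LIFR* and *IL5RA* were at 0.00 TPM.

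All 12 genes listed as known STAT5 outputs, the pathway below the GM-CSF receptor, were detected. *PIM1*, a survival kinase, had 101, 135 and 104 TPM. *CISH* and *SOCS2*, feedback inhibitors of the pathway, had 44.0, 32.8 and 43.0 TPM and 29.5, 31.2 and 29.3 TPM. *SOCS3* and *OSM* were the lowest at 2.33 and 1.93 TPM.

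Cytokine genes themselves were fewer, 13 of 35 (37.1%). *TGFB1* had 158 TPM, and *CXCL8* (interleukin-8) had 81.8, 155 and 95.3 TPM with replicate 2 the highest. *CCL2*, a monocyte attractant, had a mean of 33.0 TPM. *CSF2* and *IL3*, which encode GM-CSF and interleukin-3, had 0 counts in all replicates, which allows up to 0.0116 to 0.0200 CPM.

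Genes for adhesion and recognition were detected in part, to be set beside 55% of protein-coding genes. Of 26 integrin genes 12 were detected (46.2%), near that share. *ITGB2*, the beta chain of leukocyte integrins, was at 366 TPM, *ITGA4* at 215 and *ITGAL* at 118 TPM. Among 24 Siglec and leukocyte immunoglobulin-like receptors 7 were detected (29.2%), led by the inhibitory collagen receptor *LAIR1* at 219 TPM and by *CD33*. Of 23 chemokine receptors 4 were detected (17.4%), *CCR2* being the highest at 32.9 TPM. *TLR4*, the receptor for endotoxin, had 20.3 TPM and its relative *CD180* 17.7 TPM. *FCGR2A* and *FCGRT* had 80.8 and 74.1 TPM, while *FCER1G*, the signalling chain of several Fc receptors, had 0.497 TPM.

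Antigen presentation genes were high, 17 of 22 detected. *B2M*, the light chain of class I molecules, had 1723 TPM. *CD74*, the invariant chain of class II molecules, had 727, 991 and 989 TPM, and *HLA-DRA* had 164, 236 and 239 TPM. Both were lowest in replicate 1. *HLA-DQA1* and *HLA-DQB1* lay under 0.1 TPM. The reads of these polymorphic genes were placed on 1 reference sequence, so their levels are uncertain.

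Of 32 genes recurrently mutated in AML 30 were detected. The exceptions were *KIT*, given above, and *BCOR*, a corepressor of the Polycomb system (chrX:40049815-40177329, minus strand). *BCOR* had 0, 0 and 2 counts and a mean of 0.00333 TPM, the lowest of that list. Of the genes around it, *MPC1L* was at 0.01 TPM and others were present: *MID1IP1* had 72.9 TPM, *ATP6AP2* 53.1, *MED14* 19.4 and *DDX3X* 168 TPM. Its relative *BCORL1* had 6.21 TPM. These neighbours and *BCORL1* were chosen after the value of *BCOR* was seen.

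Of 16 survival and death genes 11 were detected (68.8%), beside 55% of protein-coding genes. *BAX*, which opens the mitochondrial membrane in apoptosis, had 269, 241 and 232 TPM. *MCL1* had a mean of 131 TPM, *BCL2* 57.3 and *BCL2L1* 34.1, whereas the related protector *BCL2A1* had 0.57 TPM. *PMAIP1* (NOXA) had 30.2, 52.4 and 33.6 TPM and was highest in replicate 2.

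Genes of the cell cycle were expressed throughout, all 22 at 10 TPM or above, beside 38.7% of protein-coding genes. *PCNA*, the sliding clamp of DNA polymerase, had 445, 432 and 441 TPM and *CCNE2* was the lowest at 23.4 TPM. Among 20 cancer-testis genes 2 were detected. *CCNA1* (cyclin A1, chr13:36431520-36442882), a testis cyclin also known from leukemia, had 349, 373 and 463 TPM, and *PRAME* had 11.7, 11.1 and 10.4 TPM. Of the others 14 had 0 counts in all replicates.

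Metabolic and stress genes were also well represented. *ENO1* and *LDHA*, glycolytic enzymes, had 2811 to 2968 and 805 to 955 TPM. Of 21 cholesterol genes 20 were detected, *FDPS* being the highest at 360, 361 and 434 TPM. All 18 genes of the ATF4 response to amino acid and stress signals were detected, from *SHMT2* (214 to 221 TPM) down to *CHAC1* (2.57 TPM). All 12 heat shock genes exceeded 10 TPM, beside 38.7% of protein-coding genes. The constitutive chaperone *HSPA8* had 2250, 1650 and 1978 TPM. Of 20 interferon-induced genes 11 were detected, the same 55% as among protein-coding genes, with *BST2* the highest at 72.1 to 97.1 TPM.

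A list of 27 genes, a chosen part of those that the study names, covers iron-sulfur cluster assembly, splicing and copper handling. All 27 were detected. *SRSF2* and *SF3B1*, splicing factors, had means of 432 and 125 TPM. *HSPA9*, the mitochondrial chaperone of cluster assembly, had 321 TPM, and the cysteine desulfurase *NFS1* 30.5 TPM. *IBA57*, a late factor of mitochondrial cluster assembly, was the lowest at 5.01 TPM. *SLC31A1*, the copper importer, had 17.1 TPM. *MT2A*, a metal-binding metallothionein, had 125, 83.4 and 88.0 TPM.

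Markers of other cell types were mostly at or near 0. In 13 such lists 13 of 135 genes were detected, 92 lay under 0.1 TPM in all replicates and 35 had 0 counts. Over all protein-coding genes 55% were detected, 33.8% lay under 0.1 TPM in all replicates and 19% had 0 counts. Only *NCAM1* and *PRG2* had a mean above 10 TPM. *NCAM1* (CD56), an adhesion molecule of natural killer cells, had 31.9, 32.0 and 33.5 TPM, and *NKG7* had 9.77, 4.40 and 5.94 TPM, while the other 8 natural killer genes lay under 0.1 TPM. *CD79A*, a B cell receptor chain, had 8.85 TPM and *CD247*, the T cell receptor zeta chain, had 3.20 TPM. *TFR2* and *EPOR* stood out in the erythroid list at 9.45 and 4.73 TPM, with globin genes near 0. *PRG2*, an eosinophil granule protein, had 27.9, 6.85 and 7.54 TPM, but only 27, 35 and 17 unique counts.

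Lineage factors outside the myeloid path were rare as well, 3 of 24. *BCL11A* had 45.9 TPM, *RUNX3* 23.7 and *RUNX2* 4.41 TPM, and *GATA1* and *GATA3* were at 0. No gene of the epithelial, fibroblast or muscle lists reached 1 TPM in every replicate. Of 640 immunoglobulin and T cell receptor gene segments 4 were detected, all constant segments of T cell receptors: *TRGC2* (34.5 TPM), *TRGC1* (28.2), *TRDC* (14.2) and *TRAC* (4.24).

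Silence was widespread outside these groups. No unique reverse-strand count was seen in any replicate for 27389 genes (45.2%), among them 3786 protein-coding genes (19%), and for 26249 of these the estimated count was 0 too. Of 388 olfactory receptor genes 1, *OR2W3*, was detected and 328 had 0 counts. No keratin-associated gene (94) and no beta-defensin gene (39) reached 1 TPM in all replicates. By contrast 385 of 510 zinc finger genes of the ZNF series were detected.

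Spread between replicates was measured on the unique counts, for 19248 genes with at least 10 counts in each library. The common biological coefficient of variation was 0.0965, and the median SD of log2 CPM over the 3 replicates was 0.11. The ratio of the variance between replicates to that of counting alone was over 2 in 72.3% of genes, each estimated from 3 values. For 9208 protein-coding genes of at least 5 TPM the median SD was 0.06 and the 90th percentile 0.15. In this set 6980 genes had an SD below 0.1 and 29 had one over 0.5.

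The first principal component held 62.4% of the variance and lay between replicate 1 and the other 2, and the second (37.6%) lay between replicates 2 and 3. Replicate 1 was the farthest of the 3 from the others for 42.5% of genes, beside 31.3% for replicate 2 and 26.2% for replicate 3. Among the 500 most variable genes these numbers were 201, 185 and 114. The distances were small. Over 6190 genes the median absolute difference was 0.07 between replicates 1 and 2 and between replicates 1 and 3, and 0.05 between replicates 2 and 3, on the log2 CPM scale. Deviation was also set against effective length, the estimated transcript length that TPM divides by. The Spearman correlation across genes was -0.31 in replicate 1, 0.03 in replicate 2 and 0.38 in replicate 3. The part of this trend in the differences given next was not tested.

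Few genes varied strongly. *S100P*, a calcium-binding protein, had 4.29, 3.67 and 13.9 TPM (SD of log2 CPM 0.99). *CD300A*, an inhibitory receptor, had 4.52, 12.4 and 16.3 TPM (SD 0.97) and *ALDOC*, a glycolytic aldolase, had 4.74, 11.5 and 17.9 TPM (SD 0.95). Replicate 1 was lower than replicate 3 in each. *HSPA1B*, the inducible heat shock protein, had 84.5, 24.5 and 57.1 TPM (SD 0.88). Others in the 15 most variable were *DDIT4*, *ENPP2*, *LYZ*, *IFI6*, *MS4A4A*, *NKG7* and *BNIP3L*. For *FAM156A* and *BOLA2-SMG1P6*, also among them, the SD dropped to 0.03 and 0.05 with estimated counts in place of unique ones.

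Among the steadiest genes, with an SD of at most 0.0025, were *GMIP*, *YTHDF2* (a reader of methylated adenosine), *UTP18*, *PAPOLA* (poly(A) polymerase), *TRA2B* (a splicing factor) and *RPL37*. These are the lowest of 9208 SDs, each from 3 values. Their variance lay below that of counting alone, with a ratio of 0.0067 for *GMIP* and 0.25 for *TRA2B*. The SD of *RPL37* was 0.026 with estimated counts, and that of *PAPOLA* 0.032 on the log2(TPM + 1) scale. Their place as the steadiest thus depends on the scale.

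**Figure D4:**
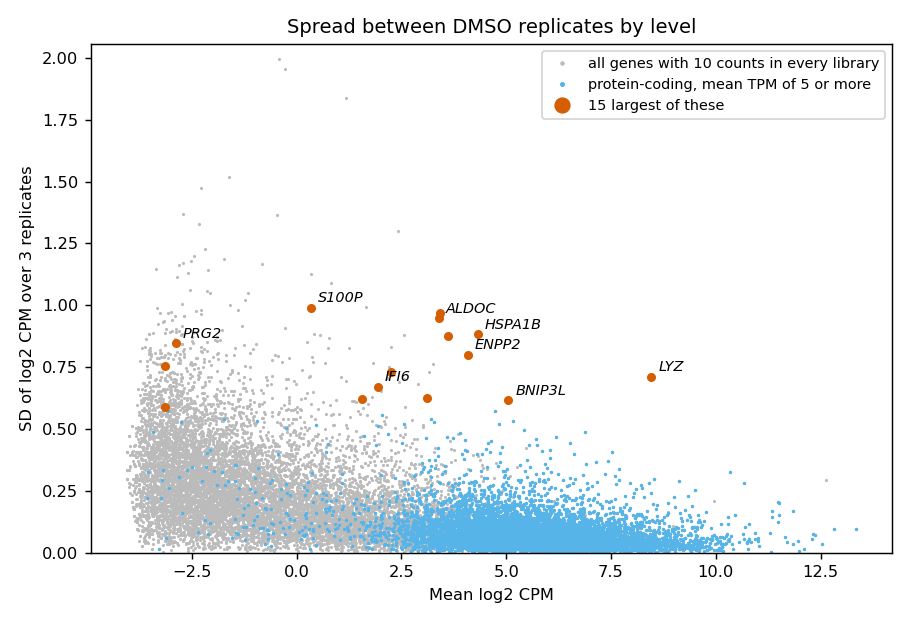
SD of log2 CPM over the 3 DMSO replicates against mean log2 CPM, with 1 point per gene, protein-coding genes of at least 5 TPM in blue and the 15 most variable of these in orange. Most points lie low (median SD 0.11), and named genes such as *S100P* (0.99), *ALDOC* (0.95) and *HSPA1B* (0.88) lie above them.

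Some lists deviated as a block. The reference for the counts below is the share of the 9208 protein-coding genes of at least 5 TPM whose highest value fell in each replicate, 41.7% in replicate 1, 29.7% in replicate 2 and 28.6% in replicate 3. All 12 heat shock genes and 7 of the 8 primary granule genes of at least 5 TPM were highest in replicate 1, with median deviations from the gene mean of 0.18 and 0.35 on the log2 scale. All 20 cholesterol genes of at least 5 TPM were highest in replicate 3 (median deviation 0.22). Of 15 antigen presentation genes none was highest in replicate 1 (median deviation -0.18 there). Among them 11 were highest in replicate 2, but by median deviation replicate 3 lay above replicate 2 with estimated counts (0.10 against 0.08) and on the TPM scale. The mitochondrial messenger RNAs were highest in replicate 2 for 12 of 13 (median deviation 0.13 there). The signs of these 5 median deviations were the same under all other scalings tried.

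Further lists moved as well. The 4 Fc receptor genes of at least 5 TPM had a median SD of 0.26 and were all highest in replicate 3. Monocyte and macrophage genes (4) had a median SD of 0.28 and cytokine genes (8) 0.18. Of 8 interferon-induced genes 6 were highest in replicate 1. So were 60 of 78 mitochondrial ribosomal genes, with a median SD of only 0.05. The lists given next moved little. The listed genes of the study had a median SD of 0.05 and proliferation genes 0.05, below the 0.06 of protein-coding genes of that level. Ribosomal proteins had a median SD of 0.03, and the sign of their small deviation in replicate 2 (0.02) turned on the TPM scale. With 1 group of 3 libraries, whether these block differences come from culture, harvest or library steps cannot be told apart.

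**Figure D5:**
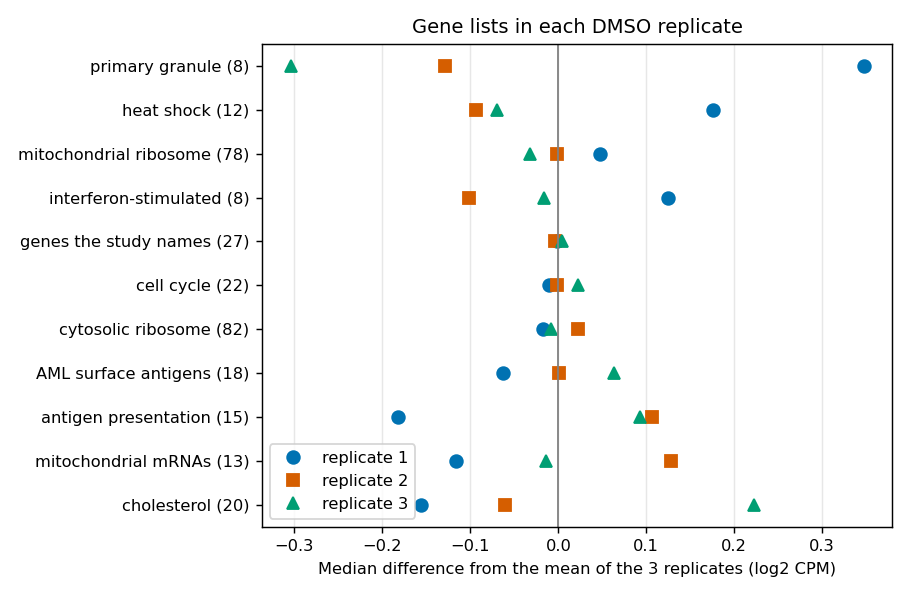
Median deviation of each list from its gene means (log2 CPM) in each of the 3 DMSO replicates, with the number of genes of at least 5 TPM in parentheses. Primary granule genes (0.35) and heat shock genes (0.18) lie above 0 in replicate 1, cholesterol genes (0.22) in replicate 3, and the sign of ribosomal proteins in replicate 2 turns on the TPM scale.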

How the data were processed

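RNA from OCI-AML5 cells was sequenced as paired, strand-specific reads. Count files and expression files of the 3 DMSO samples were used. The authors deposited gene counts made by STAR, with columns for either strand, of which the reverse-strand column was used. They also deposited expected counts and TPM from RSEM on GRCh38. The submitters' processing notes name STAR 2.7.1a and RSEM 1.2.28. The annotation release is not given in the sources used here. Of 60609 listed genes 58502 were in GENCODE 29, which gave positions and gene types. For 45 genes in the shared ends of X and Y, the copies listed were summed, which left 60564, and lines naming no gene (20.4% of fragments) were left out.

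Levels and shares were taken from TPM, and a gene was detected at 1 TPM or more in every replicate. Spread was taken from the deposited counts after TMM scaling in edgeR, with genes of at least 10 counts in every library and a prior count of 2 for log2 CPM. The steps were tested on simulated data. Promoter windows (250 bases before to 50 after the start) came from RefSeq, and 15321 of 19887 protein-coding genes (77.0%) matched. Motifs were searched as spelled out with the results, the SP1-type and PU.1 letters on both strands of the bases before the start. Named genes were the 20 most abundant, the members of fixed lists, the 15 with the largest and 10 with the smallest SD at 5 TPM or more. The members and lists were chosen with earlier results of these data known, and 1 list holds a part of the genes that the study names. No p-value was computed, since 1 group was described. Genes linked to sex and some other members of the lists are not reported singly here.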

Additional observations from a re-analysis of the deposited data

Results flagged for a closer look

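The forward-strand count column was outside the values used above. In it, 1504 genes with 0 reverse-strand counts in all 3 replicates had more than 3 forward-strand counts in each. That is above the limit that a count of 0 allows, and the genes were 2.48% of all genes. Of these 220 were protein-coding, 1.11% of all protein-coding genes. *TMEM213* had 452, 284 and 446 forward counts, and *GP1BA*, which encodes a platelet glycoprotein, had 343, 296 and 402. Forward counts made up 6.46% to 6.58% of the sum of both strands. For such genes, reads on the forward strand lie opposite to the annotated gene, and their source was not tested.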

How the results depend on the processing

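No paired analysis was possible because no second group was compared with the DMSO samples. With counts in place of TPM the 10 and 100 most abundant genes held 5.78% and 18.9%, ribosomal proteins 5.79% and mitochondrial genes 5.12%. Over nuclear protein-coding genes alone the 10 and 100 most abundant held 6.02% and 33.0%. The median SD of log2 CPM was 0.263 with genes of at least 1 count in a library and 0.0651 on the log2(TPM + 1) scale. Detected genes with a CpG ratio over 0.6 were 84.8% at 0.5 TPM and 86.7% at 2 TPM. Detected genes numbered 13929 at 0.5 TPM, 11417 at 2 TPM and 12624 with the copies on X and Y apart, the last chosen after seeing the data. Genes at 0 numbered 31408 by estimated counts and 23330 by the counts that ignore strand. Leaving out 1 replicate in turn gave shares of 10.9% to 11.4% and 37.5% to 38.2% for the 10 and 100 most abundant genes, 20.6% to 20.8% for ribosomal proteins and 11.9% to 12.7% for mitochondrial genes, 12704 to 12767 detected genes, 28336 to 29174 genes at 0, 392 to 395 detected list genes of 735 (389 with all replicates), a common coefficient of variation of 0.0852 to 0.107 and a median SD of 0.0802 to 0.0993. The counts of detected genes and of genes at 0 require all replicates, so leaving 1 out can only raise them. Their rise was thus fixed in advance. The median SD, then taken over fewer values per gene, tends to be lower and lay under the 0.11 of all replicates.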

Other observations

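Several values outside the lists are given here and were chosen after they were seen. *CDKN2A*, the inhibitor of CDK4 and source of p14ARF, had 0.24, 0.10 and 0.06 TPM, and its neighbour *CDKN2B* had 0 counts in all replicates. *MTAP*, which lies beside them on chromosome 9, had a mean of 38.6 TPM. *CDKN1A*, an inhibitor of cyclin-dependent kinases, had 150, 90.5 and 106 TPM.

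Some genes known to respond to low oxygen were lowest in replicate 1, chosen after their values were seen. *PFKFB4* had 0.88, 5.15 and 2.88 TPM, *BNIP3* had 24.4, 42.6 and 34.1 TPM, and *PDK1* had 4.98, 8.91 and 8.45 TPM, beside the values of *ALDOC* and *BNIP3L*. Across the list of hypoxia and glycolysis genes of at least 5 TPM, 2 of 18 were highest in replicate 1. The share over protein-coding genes of that level was 41.7%. The median deviation of the list in replicate 1 was small, -0.05 on the log2 CPM scale. By contrast *VEGFA* (log2 CPM 6.17, 5.87 and 6.10) and *PKM* (10.71, 10.56 and 10.66) were highest in replicate 1. The source of these differences was not tested.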
